A study of Mus musculus with 10 samples.

Results

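Chromatin accessible after 24 h of estradiol was compared with that after 2 h in G1E-ER4 cells, so that both sides of the comparison had already met the ligand. Peak lists from ATAC-seq, in which the Tn5 transposase cuts and tags open DNA, were cut to the 10697 best-ranked peaks on chromosomes 1 to 19 and X, and windows reaching 250 bp to either side of each summit were merged over the 4 libraries. Of 16669 merged regions, 458 were gained (listed by each 24 h library and by no 2 h library) and 589 were lost (the reverse), which is 2.75% and 3.53% of all regions. A further 5886 regions were kept in all 4 libraries, 5494 were found in a single library, and 4242 had another pattern. The counts of gained and lost regions are fixed by the rule and were not tested.

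G1E-ER4 is a mouse erythroid line, a subclone of G1E cells, which were made from Gata1-null embryonic stem cells, and it carries GATA1 fused to the ligand-binding domain of the estrogen receptor. All 5 groups (0, 2, 6, 12 and 24 h) share this line, its missing Gata1 gene, the fusion protein and growth with stem cell factor and erythropoietin. The series holds 10 libraries, 2 at each time, from about 50000 cells each, and β-estradiol was given at 1e-07 M. The labels do not say whether replicates were separate cultures, while a figure legend of the study speaks of independent experiments without tying them to replicate numbers. The line stands for a single clone.

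GATA1 binds the sequence AGATAA or TGATAA and drives the maturation of red cell precursors. It activates globin, heme and membrane genes, often together with TAL1, and it replaces the related factor GATA2 at sites of genes that keep progenitors immature, Gata2 and Kit among them. Mast cells and megakaryocytes, which share precursors with the red cell lineage, also use GATA factors.

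The full lists held from 10697 peaks (24 h replicate 2) to 19855 peaks (6 h replicate 2) on the chromosomes used. The score of a peak is −log10 of its q-value, the false discovery rate of the peak caller, and the lowest scores were between 1.302 and 1.352 in the 10 lists. Because 24 h replicate 2 had the shortest list, its score at the cut was 1.31, against 4.40 in 24 h replicate 1, 4.83 in 2 h replicate 1 and 4.59 in 2 h replicate 2. A gained region could therefore rest on a weak peak at 24 h, while a lost region had no peak of any strength in 24 h replicate 2. Read totals were not used here and the depth of each library is unknown, so a region not listed is one where no peak was called at this depth, and fewer cells with open DNA cannot be told apart from less open DNA per cell. Of 9 erythroid marker genes, 3 to 5 had a peak within 1 kb of a transcript start in each library, with Epor, Tfrc and Nfe2 in all 10 libraries. Slc4a1, Alas2, Hba-a1 and Hbb-bt had none in any library, and the 12 markers of other cell types (liver, muscle, lymphoid, neural and others) had none in any library either.

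Lost regions held GATA sequences far more often than gained ones. The following 200-base windows are centred on the summits of regions described in the results. They are printed 5′ to 3′ on the plus strand of mm10 as read from the RefSeq GRCm38.p6 sequence, with every AGATAA or TGATAA match on either strand in capitals. The first 8 are lost regions, that of Slc45a3 shown for its best rank and the others for lying near genes of red cells, progenitors or mast cells, and the last 4 are gained regions for contrast. They were chosen after their sequences were seen, and the Rhd window was added as a lost region with no match.
Gata2, 2.08 kb upstream, lost, chr6:88191711-88191910: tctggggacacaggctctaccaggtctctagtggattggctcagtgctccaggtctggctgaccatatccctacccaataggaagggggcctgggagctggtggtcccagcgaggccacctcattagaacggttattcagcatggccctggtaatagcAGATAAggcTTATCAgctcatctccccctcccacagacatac
Hbb-y, 24.1 kb upstream, lost, chr7:103877184-103877383: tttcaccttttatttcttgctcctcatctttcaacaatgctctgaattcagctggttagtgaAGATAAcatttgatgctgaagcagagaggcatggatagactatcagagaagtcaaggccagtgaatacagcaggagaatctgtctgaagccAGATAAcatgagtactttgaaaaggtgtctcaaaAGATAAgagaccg
Cpa3, 1.96 kb upstream, lost, chr3:20244038-20244237: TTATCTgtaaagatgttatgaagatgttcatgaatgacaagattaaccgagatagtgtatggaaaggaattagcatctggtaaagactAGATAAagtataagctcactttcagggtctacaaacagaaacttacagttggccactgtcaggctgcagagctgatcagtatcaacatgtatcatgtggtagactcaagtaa
Add2, 2.94 kb before a start, lost, chr6:86075014-86075213: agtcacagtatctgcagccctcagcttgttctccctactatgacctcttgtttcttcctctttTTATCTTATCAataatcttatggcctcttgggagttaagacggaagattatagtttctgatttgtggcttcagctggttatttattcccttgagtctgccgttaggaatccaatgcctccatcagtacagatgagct
Add2, 17.96 kb past a start, lost, chr6:86103721-86103920: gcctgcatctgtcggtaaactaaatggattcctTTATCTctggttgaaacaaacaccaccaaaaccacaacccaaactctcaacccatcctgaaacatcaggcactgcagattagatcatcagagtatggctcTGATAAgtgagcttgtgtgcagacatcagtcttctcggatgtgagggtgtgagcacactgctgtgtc
Erg, 28.8 kb before a start, lost, chr16:95488019-95488218: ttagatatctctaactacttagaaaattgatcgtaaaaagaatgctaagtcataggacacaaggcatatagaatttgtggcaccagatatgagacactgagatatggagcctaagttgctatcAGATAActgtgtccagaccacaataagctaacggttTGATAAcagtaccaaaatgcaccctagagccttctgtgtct
Rhd, 27.8 kb past the start, lost, chr4:134892236-134892435: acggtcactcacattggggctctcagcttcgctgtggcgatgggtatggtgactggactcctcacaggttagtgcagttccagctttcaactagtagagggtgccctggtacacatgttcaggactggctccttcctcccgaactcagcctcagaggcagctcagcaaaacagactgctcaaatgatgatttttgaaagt
Slc45a3, 20.04 kb upstream, lost, chr1:131942825-131943024: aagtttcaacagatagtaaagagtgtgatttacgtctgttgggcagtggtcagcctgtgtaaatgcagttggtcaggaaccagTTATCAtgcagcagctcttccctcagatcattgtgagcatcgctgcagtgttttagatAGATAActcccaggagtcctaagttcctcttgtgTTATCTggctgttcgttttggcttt
Bcl2l1, 15.9 kb past the start, gained, chr2:152814291-152814490: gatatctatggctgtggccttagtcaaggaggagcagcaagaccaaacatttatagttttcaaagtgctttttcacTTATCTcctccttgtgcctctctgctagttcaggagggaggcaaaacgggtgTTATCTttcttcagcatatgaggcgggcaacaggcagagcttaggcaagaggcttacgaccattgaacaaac
Bcl2l1, 12.7 kb past the start, gained, chr2:152817525-152817724: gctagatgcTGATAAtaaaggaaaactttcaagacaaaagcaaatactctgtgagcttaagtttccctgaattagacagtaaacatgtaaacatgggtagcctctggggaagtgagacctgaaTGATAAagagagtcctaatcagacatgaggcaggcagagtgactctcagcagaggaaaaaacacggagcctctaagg
Spns2, 7.63 kb past the start, gained, chr11:72482174-72482373: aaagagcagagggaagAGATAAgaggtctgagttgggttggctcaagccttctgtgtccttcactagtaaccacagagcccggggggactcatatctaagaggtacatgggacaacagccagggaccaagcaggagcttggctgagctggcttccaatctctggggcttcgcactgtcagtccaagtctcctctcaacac
Mroh3, 33.1 kb past the start, gained, chr1:136179646-136179845: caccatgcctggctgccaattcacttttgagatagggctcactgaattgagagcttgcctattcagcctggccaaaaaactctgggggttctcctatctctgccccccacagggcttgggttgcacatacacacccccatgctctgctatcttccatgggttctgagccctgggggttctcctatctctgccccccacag
Distances are from the nearest transcript start of the gene in GENCODE vM21. The Gata2, Hbb-y, Cpa3, Slc45a3 and Mroh3 windows are intergenic, and the others lie in introns of the gene named. The Hbb-y and Slc45a3 windows have 3 GATA matches each, the Spns2 window has 1, the Rhd and Mroh3 windows have 0, and each of the others has 2. The printed windows are richer in matches than their sets, both lost and gained. Of the 30 lost regions near listed genes, 10 hold none and 12 hold at least 2. Of the 20 gained regions near listed genes, 10 hold none and 4 hold at least 2. Over all members a match was in 58.1% of lost and 25.8% of gained regions.

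In the lists as cut, regions away from promoters made up most of both sets. A promoter was a region within 1 kb of the start of a protein-coding transcript. Of the gained regions 181 (39.5%, 95% Clopper-Pearson interval 35.0% to 44.2%) were promoters, and of the lost regions 122 (20.7%), against 79.4% of kept regions and 52.0% of all regions. Without 24 h replicate 2 the order turned, with 29.0% of gained and 46.6% of lost regions at promoters. Gained regions were mostly promoters with the 5000 best peaks of each list (71.2%) and without 2 h replicate 2 (57.6%). The median distance to a start was 5.08 kb for gained, 15.2 kb for lost and 0.106 kb for kept regions. Introns held 42.8% of gained and 47.5% of lost summits, and 34.1% and 42.1% were intergenic. Mean GC content over the 200 bp was 57.3% ± 10.1 (SD, n = 458 regions) in gained, 49.7% ± 9.22 (SD, n = 589 regions) in lost and 61.7% ± 8.90 (SD, n = 5886 regions) in kept regions. Lost regions were thus the more distal and the poorer in GC of the pair. Summits in repeats, as the genome sequence marks them, were 5.68% of gained, 8.32% of lost and 6.89% of all regions.

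A GATA match lay within the 200 bp around the summit in 342 of 589 lost regions (58.1%, interval 54.0% to 62.1%) and in 118 of 458 gained regions (25.8%, interval 21.8% to 30.0%). Kept regions had one in 13.3% and all regions in 24.3%, so the share in gained regions was near that of all regions and the share in lost regions was above it. With the 5000 best peaks of each list the shares were 15.0% in gained and 46.9% in lost regions. The intervals cover counting error only. Lost regions were also above gained ones away from starts. Outside promoters the match was in 68.1% of 467 lost, 39.7% of 277 gained, 45.9% of 1212 kept and 43.1% of all 8004 distal regions. At promoters it was in 19.7% of 122 lost and 4.42% of 181 gained regions, against 6.87% of all 8665. GC content also differed between distal lost (47.0%) and distal gained regions (51.9%), and its part in the GATA shares was not tested. At least 2 matches were present in 26.1% of lost, 6.11% of gained and 7.38% of all regions. The composite of a TAL1 site and a GATA site, searched as CTG, then 7 or 8 bases, then AGATAA or TGATAA, was in 88 lost regions (14.9%) and 17 gained regions (3.71%), against 5.23% of all regions. Among distal regions the composite was in 18.2% of lost, 5.42% of gained, 12.8% of kept and 9.70% of all. The composite contains a GATA match by construction. The Gata2 window above has it at chr6:88191858-88191874 and the Hbb-y window at chr7:103877235-103877251.

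**Figure D1:**
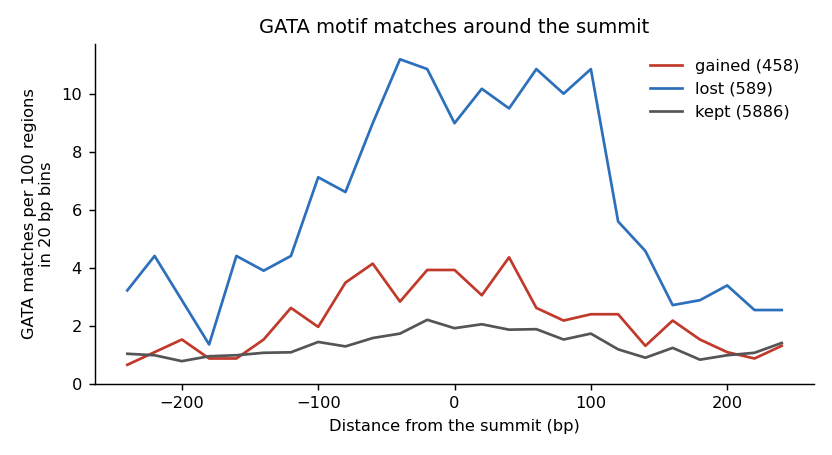
GATA matches per 100 regions (vertical axis, 20 bp bins) against the distance in bp of the match from the summit (horizontal axis, genome orientation) for gained, lost and kept regions. Lost regions hold 8.998 matches per 100 regions in the bin at the summit and 11.2 in the highest bin, gained regions 3.93 at the summit.

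In lost regions the matches gathered around the summit, as the plot of matches by distance shows, and fell to 2.55 per 100 regions in the outermost bin on the right. Between 10 and 110 bp from the summit, 264 matches lay on the side of lower coordinates and 303 on the side of higher coordinates. Gained regions had 75 and 67 matches at these distances. Matches gathered around the summit in gained and kept regions too. In gained regions they fell from 3.93 per 100 regions at the summit to 0.655 and 1.31 in the outermost bins. In kept regions they fell from 1.92 to 1.04 and 1.41.

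Sites of other factors of blood cells differed between the sets as well. RUNX factors work in progenitors and megakaryocytes, and their site TGTGGTT was in 11.2% of lost, 4.37% of gained and 5.21% of all regions. The E-box CAGATG, bound by TAL1 and its partners, was in 20.5%, 10.0% and 12.3%. The site of MYB (CAAC or TAAC, then G or T, then G), a factor of dividing progenitors, was in 30.4% of lost regions, in 87 of the 458 gained ones and in 21.1% of all. RUNX, E-box and MYB matches were thus each more frequent in lost than in gained regions. Among distal regions the RUNX site was in 13.5% of lost, 5.78% of gained, 8.42% of kept and 8.58% of all. In the same order the E-box was in 23.6%, 13.0%, 15.8% and 18.2%, and the MYB site in 32.5%, 23.1%, 23.8% and 25.6%. The site of KLF proteins (CCACACCC, CCACGCCC, CCCCACCC or CCCCGCCC), which include the red cell factor KLF1, went the other way, with 12.9% of lost, 28.6% of gained and 25.1% of all regions. Among distal regions the KLF site was in 8.35% of lost, 21.7% of gained, 20.8% of kept and 13.4% of all. The gained share was thus near that of kept regions. Mean GC content was 53.2% in distal kept regions, and its part in the shares of these sites was not tested. The ETS site (AGGAAGT or CGGAAGT) was in 10.0% of lost and 12.2% of gained regions, and the AP-1 site (TGACTCA or TGAGTCA) in 6.96% and 5.46%. The CTCF consensus was in 22 gained regions (4.80%), 17 lost regions (2.89%) and 3.59% of all regions. All sites were searched on either strand, a CAACTG match can overlap the CTG of the composite, and a match is a sequence and not evidence of binding.

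**Figure D2:**
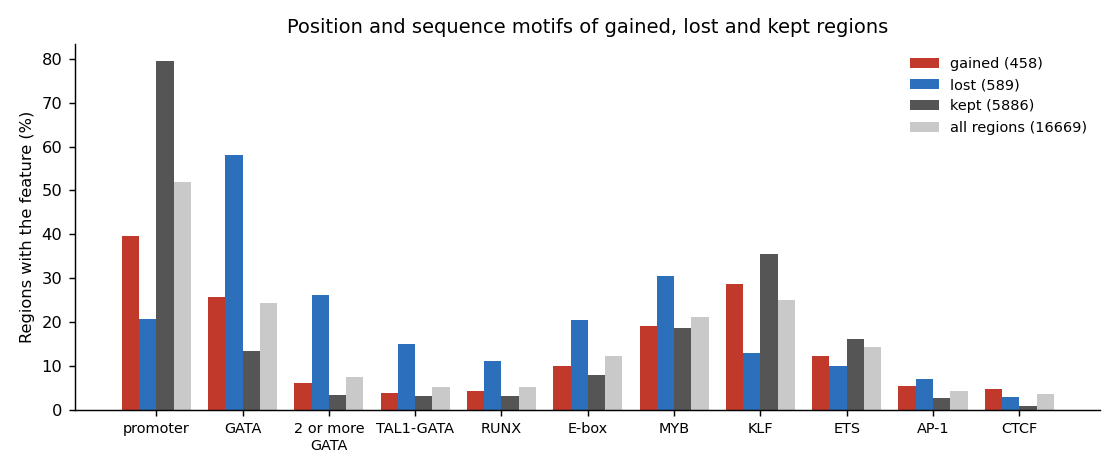
Share of regions (vertical axis, %) at promoters or with each sequence motif in the 200 bp around the summit, for gained, lost, kept and all merged regions. The widest gap between gained and lost regions is in GATA matches, 25.8% against 58.1%.

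The 6 libraries that the rule did not use show where along the course the members appeared or went. Gained regions were listed in 33.8% and 34.3% of cases in the 0 h libraries, 42.8% and 47.4% at 6 h and 49.6% and 46.1% at 12 h. Lost regions were listed in 59.3% and 58.4% before estradiol, 43.8% and 53.7% after 6 h and 39.6% and 45.3% after 12 h. In these cut lists the 0 h libraries were the lowest 2 for gained and the highest 2 for lost regions, while the 6 h and 12 h libraries overlapped. Kept regions, chosen for their presence in all 4 compared libraries, were listed in 91.8% to 96.8% of cases (r with hours 0.108, exact permutation p = 0.867). Among all merged regions the share ranged from 56.8% (12 h replicate 1) to 60.7% (6 h replicate 2). Lost regions were thus within this range before estradiol and below it in the later libraries. Gained regions were below it in each of the 6 libraries. Over the 6 libraries Pearson's r between the share of gained regions and hours was 0.909 (exact permutation p = 0.0444, adjusted over 4 tests p = 0.0667, two-sided), which did not pass after adjustment, and Spearman's rho was 0.837 (exact permutation p = 0.0667, adjusted p = 0.0667). For lost regions r was −0.890 (exact permutation p = 0.0444, adjusted p = 0.0667) and rho −0.837 (exact permutation p = 0.0667, adjusted p = 0.0667). Without both 0 h libraries r was 0.556 for gained and −0.614 for lost regions (exact permutation p = 0.667 in each), so the relation rests on those libraries. Without both 12 h libraries r was 0.959 and −0.822 (exact permutation p = 0.33 in each, the smallest that 4 such libraries allow). In the full lists the relation was weaker, with r = 0.558 for gained (exact permutation p = 0.244) and −0.367 for lost regions (exact permutation p = 0.489), and lost regions were listed in 78.4% and 65.2% of cases at 0 h against 88.8% in 6 h replicate 2. There r turned to −0.329 for gained regions without both 0 h libraries and to 0.148 for lost regions without both 12 h libraries (exact permutation p = 1 in each).

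**Figure D3:**
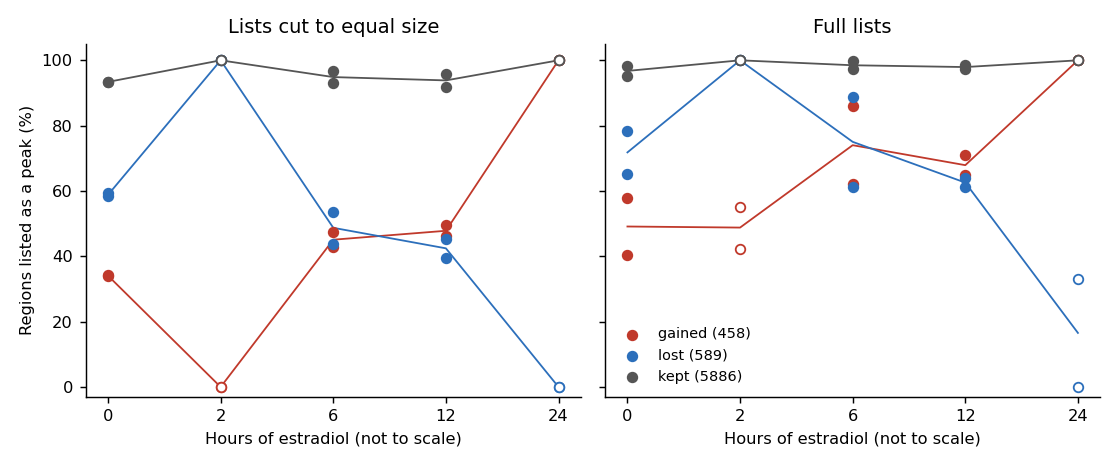
Share of gained, lost and kept regions listed as a peak (vertical axis, %) in each library by hours of estradiol (horizontal axis), in lists cut to equal size (left) and full lists (right). Points are libraries, lines join the means of 2 libraries, and open points are the libraries that the rule used, so their values in the left panel are fixed at 0 or 100.

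Many members were not switched outright between 2 h and 24 h. In the full lists a weaker peak overlapped 55.2% of gained regions in 2 h replicate 1 and 42.4% in 2 h replicate 2, and 134 of 458 gained regions had a peak in neither full 2 h list. Of the lost regions 33.1% had a weaker peak in 24 h replicate 1, and 394 of 589 had none in either full 24 h list. The list of 24 h replicate 2 was not shortened by the cut and could hold no weaker peak. The full 2 h lists held 16113 and 14272 peaks, so gained and lost regions were not filtered alike. When a peak of the other time point anywhere within 1 kb also counted, 113 gained and 367 lost regions were left. The GATA share of these was 31.9% for gained and 66.8% for lost, and their promoter shares were 15.9% and 13.4%. Member peaks were weak within their own lists. In 24 h replicate 1 and replicate 2, 76.0% and 83.6% of gained regions ranked below the midpoint of the list, and in 2 h replicate 1 and replicate 2, 72.5% and 77.8% of lost regions did, against 27.0% to 29.2% of kept regions.

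The state at 0 h separated members with different sequences. Of the lost regions 262 were in both 0 h libraries, 169 in a single 0 h library and 158 in neither. GATA matches were in 72.1% of the first, 49.7% of the second and 43.7% of the third, and the TAL1-GATA composite in 19.5%, 15.4% and 6.96%. Lost regions already listed before estradiol thus held GATA sequences most often. Of the gained regions 228 were in neither 0 h library, 148 in a single 0 h library and 82 in both. Those in neither had a GATA match in 36.8%, a CTCF match in 7.02% and lay at promoters in 21.9%, whereas those in both, which were listed before estradiol and again at 24 h but not at 2 h, had a GATA match in 13.4%, a CTCF match in 0 of 82, and lay at promoters in 62.2%. The part of promoter content in these GATA and CTCF shares was not tested. Only 22 gained regions had a peak in both full 0 h lists and in neither full 2 h list, and 74 had none in any full list of 0 h or 2 h. For lost regions, 228 had a peak in both full 0 h lists and in neither full 24 h list. These counts of gained and lost regions rest on full lists of unlike length, as given above, and are not like for like.

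The order along the course was seldom clean. Of the gained regions 62 were in none of the 6 other libraries, 29 were in all of them, and 11 were in neither 0 h library and in all 4 libraries of 6 h and 12 h. Of the lost regions 52 were in none of the 6 and 42 in all 6. There were 19 lost regions in both 0 h libraries and in none of 6 h and 12 h, and 16 in both libraries of 0 h and of 6 h and in none of 12 h.

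The GATA share was also taken over whole lists, without selecting members. Among the 10697 best peaks of each library, 21.6% and 22.7% had a GATA match at 2 h and 17.8% and 16.9% at 24 h, means of 22.2% ± 0.754 and 17.4% ± 0.628 (SD, n = 2). The 2 h libraries lay above the 24 h libraries in both replicates, and the difference was −4.79 percentage points (exact permutation p = 0.33, two-sided, the smallest p that 2 against 2 allows). The libraries not used by the rule had 22.1% and 22.1% before estradiol, 19.3% and 19.8% after 6 h and 20.1% and 18.6% after 12 h. Outside promoters the shares were 45.8% and 51.0% at 2 h and 36.7% and 40.9% at 24 h (difference −9.57 points, exact permutation p = 0.33), and replicate 2 was higher than replicate 1 at each of the 5 times. Promoters took 61.3% and 62.6% of the 2 h lists and 61.2% and 67.1% of the 24 h lists. The part of promoter content in the difference was not tested.

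**Figure D4:**
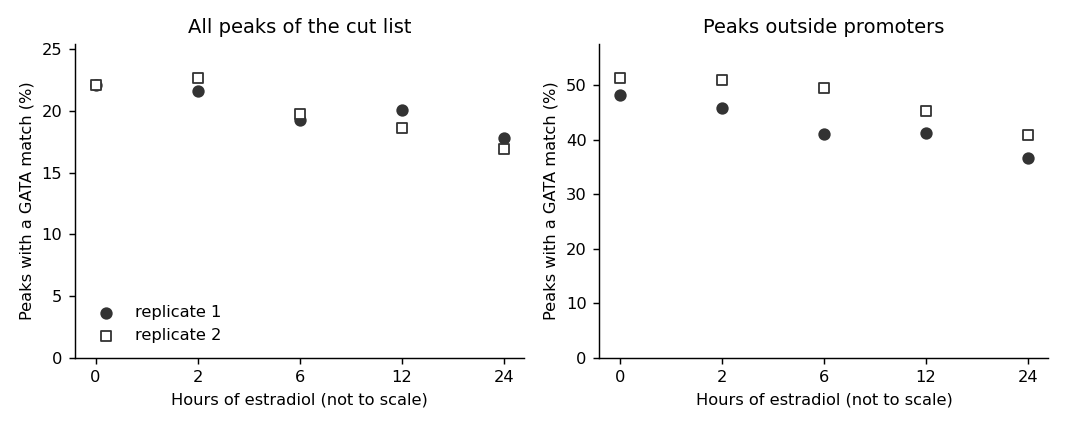
Share of the 10697 best-ranked peaks of each library with a GATA match (vertical axis, %) by hours of estradiol (horizontal axis), over all peaks (left) and over peaks outside promoters (right). Each point is a library, and in both panels the 24 h libraries sit below the 2 h libraries.

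The regions of best rank are given as single cases. Here and below, scores of single regions come from the full lists, so a region called listed may have its peak below the cut in some libraries. Each had no peak overlapping it in the full lists of the other time point. The lost region of best rank lies 20.04 kb upstream of Slc45a3, chr1:131942607-131943175, with scores of 12.1 and 16.0 at 2 h. It scored 18.9 and 14.1 before estradiol, 8.27 and 29.4 after 6 h and 5.46 and 15.8 after 12 h, and no peak was listed at 24 h. The peak was thus called in all 8 libraries before 24 h and in none at 24 h. A region in an intron of Nxpe2, 1.83 kb past the start (chr9:48338727-48339314), scored 21.3 and 17.1 before estradiol, 11.1 and 11.7 after 2 h, and 7.40 and 8.90 after 6 h. At 12 h it was listed in replicate 2 alone, at 3.98, and it holds 1 GATA match. The region in an intron of Unc13b (chr4:43114569-43115260) scored 10.1 and 11.9 at 2 h, was listed at 6 h and was not listed at 12 h or 24 h. The regions nearest to Cuedc1 and 1700020N01Rik scored 9.46 to 15.4 at 2 h and were still listed in both 12 h libraries.

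Among gained regions of best rank, the one 33.1 kb past the start of Mroh3 (chr1:136179395-136179996) scored 17.5 and 12.3 at 24 h. It was listed at 10.2 in 6 h replicate 2 and at 4.08 and 7.03 at 12 h, and in neither 0 h nor 2 h library. The region in an intron of Fryl (chr5:73141671-73142228) scored 8.07 and 11.4 at 24 h and was listed elsewhere only in 12 h replicate 2, at 3.79. The intronic region of Ccdc6 (chr10:70127139-70127683) scored 9.09 and 7.06 at 24 h and was in no other library. The region in an intron of Kalrn scored 13.2 and 6.91 at 24 h, and the region in an intron of Creb3l3 (chr10:81095177-81095809), 39.8 kb upstream of Zbtb7a, scored 7.86 and 6.97. Of these 5 regions only that of Creb3l3 holds a GATA match.

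A shift of the summit can also give a member. At the promoter of Klf11, which encodes a zinc finger repressor, a gained region (chr12:24651630-24652232, scores 19.1 and 16.3 at 24 h) and a lost region (chr12:24650998-24651602, scores 11.03 and 24.0 at 2 h) stand side by side, so the promoter was open at both times with its called summit at a different place. By rank they are gained region 1 and lost region 2. Over all members, 4 gained regions had the summit of a lost region within 1 kb and 3 lost regions had that of a gained region.

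Genes were joined to regions within 50 kb of a transcript start. Of 21646 protein-coding genes, 1078 (4.98%) had a gained region and 1075 (4.97%) a lost region within this distance, 89 of them both. Any merged region lay within 50 kb of 14020 of the 21646 genes. It did so for 19 of 19 erythroid factors, 20 of 21 membrane genes and 15 of 16 signalling genes in the lists below. The mast cell list had 13 of 17 such genes, the progenitor list 13 of 18 and the megakaryocyte list 11 of 17. Shares over all genes are thus a low base for lists whose genes nearly all have a region. A region near a gene is a position and not a link to its expression.

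Among globin genes 6 of 7 annotated had a lost region and 0 had a gained one, but only 2 regions underlie this. Hba-a1, Hba-a2 and Hba-x share the region at chr11:32268853-32269561, 7.30 kb upstream of Hba-x, which holds 1 GATA match. It scored 8.77 and 10.4 at 2 h, 3.596 in a single 0 h library, 9.80 in 6 h replicate 2, 2.99 and 5.70 at 12 h and 3.81 in 24 h replicate 1. Hbb-y, Hbb-bh1 and Hbb-bs share the region at chr7:103877014-103877534, whose window is printed above. It scored 3.39 and 4.75 at 0 h and 6.77 and 4.72 at 2 h and was not listed in any of the 6 later libraries. In 2 h replicate 2 it stood just above the score of 4.59 at the cut. None of the 12 heme synthesis genes had a gained or a lost region.

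Membrane and cytoskeleton genes of the red cell had 4 of 21 with a lost region (Epb41, Add2, Tmod3 and Rhd) and 2 with a gained one (Add1 and Ermap). Both gained regions had peaks below the cut in both 2 h libraries, 2.21 and 4.44 for Add1 and 4.09 and 3.13 for Ermap. The lost region of Epb41 had 4.30 in 24 h replicate 1, just under the score of 4.40 at the cut. Those of Add2, Tmod3 and Rhd had no peak at 24 h. Add2, which encodes β-adducin of the membrane skeleton, had 2 lost regions in its introns, each with 2 GATA matches. The region past the start scored 14.7 and 8.18 before estradiol, 11.9 and 10.1 after 2 h, 3.61 and 11.5 after 6 h, and 5.81 in 12 h replicate 1. The region before the start scored 10.3 and 7.62 at 0 h, 5.76 and 5.33 at 2 h and 20.1 in 6 h replicate 2, and was not listed at 12 h or 24 h. In the iron list of 12 genes, Tfrc (transferrin receptor) and Snx3 (a sorting protein of its recycling) had gained regions and Snx3 also a lost one. The gained region 29.5 kb past the Tfrc start scored 7.07 and 3.72 at 24 h and 3.69 and 7.89 at 6 h, and was not listed at 0 h, 2 h or 12 h.

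Among erythroid factors 6 of 19 had a gained region (Lmo2, Cbfa2t3, Mafg, Bach1, Gfi1b and Zbtb7a) and 2 a lost one (Zbtb7a and Ikzf1). Lmo2, which bridges GATA1 and TAL1, had its gained region at the promoter, with scores of 4.56 and 6.01 at 24 h and weaker peaks of 3.89 and 3.93 at 0 h and 4.16 in 2 h replicate 1. This region was thus called at 0 h, 2 h and 24 h with scores that lay close together. Cbfa2t3 encodes a corepressor of the TAL1 complex, and its region, 13.1 kb before a start, scored 4.46 and 4.18 at 24 h, 6.65 and 6.78 at 12 h, 4.57 in 6 h replicate 2 and 3.75 and 3.25 at 0 h, with no peak at 2 h. Bach1, a heme-sensitive repressor, had a gained region in an intron with 6.04 and 4.88 at 24 h and 4.44 below the cut in 2 h replicate 2. Zbtb7a encodes a repressor needed in erythroid maturation, and its promoter region scored 4.65 and 5.26 at 24 h and 3.74 in 2 h replicate 2. The region counted for Gfi1b is the promoter of Gtf3c5, and the lost region counted for Zbtb7a is at the promoter of Eef2. Ikzf1, the lymphoid and erythroid factor Ikaros, had 2 lost intronic regions with 3 and 1 GATA matches, each listed in both 0 h libraries and below the cut in 24 h replicate 1 (3.63 and 4.10).

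Lists of progenitor genes and of the neighbouring lineages had more genes with lost than with gained regions. In the progenitor list 4 of 18 had a lost region (Gata2, Erg, Etv6 and Flt3) and 1 a gained one (Kit). The Gata2 region scored 5.38 in 0 h replicate 1 and 5.66 and 4.68 at 2 h, and no peak was listed in 0 h replicate 2 or in any library from 6 h on. The Erg region, in an intron of this progenitor ETS factor, scored 8.55 and 12.5 at 0 h, 6.48 and 4.89 at 2 h and 3.65 in 6 h replicate 2, and was not listed afterwards. The lost regions of Gata2 and Erg thus disappeared from the lists by 12 h. The region near Flt3, a cytokine receptor of early progenitors, scored 5.53 and 11.6 at 2 h and lies in an intron of Pan3. The gained region in an intron of Kit, the receptor for stem cell factor, scored 5.13 and 3.13 at 24 h and 3.02 in 2 h replicate 1, and holds no GATA match.

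In the mast cell and basophil list 4 of 17 genes had a lost region (Cpa3, Il1rl1, Il4 and Gpr65) and 0 a gained one. Cpa3, Il1rl1 and Gpr65 are also among the repressed genes whose promoters the study captured, chosen by expression in this system. The region upstream of Cpa3, which encodes a mast cell protease, scored 9.60 and 14.5 before estradiol, 9.10 and 18.6 after 2 h, 3.41 and 14.7 after 6 h and 8.09 in 12 h replicate 2. The promoter region of Il1rl1, the receptor for interleukin 33, scored 16.7 and 15.0 at 0 h, 5.70 and 11.2 at 2 h, 17.5 in 6 h replicate 2, and 4.40 and 12.3 at 12 h. Neither was listed at 24 h. The median score of lost regions was 6.62 in each 2 h library, which the Cpa3 region exceeded in both and the Il1rl1 promoter region in replicate 2 alone. The region in an intron of Il4 scored 7.01 and 8.61 at 2 h and holds 3 GATA matches and the composite. The region near Gpr65, in an intron of Galc with 3 GATA matches, was listed in all 8 libraries before 24 h in the full lists, with scores from 3.41 to 12.9.

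Megakaryocyte and platelet genes had 4 of 17 with a lost region (Itga2b, Gp1ba, Gp5 and Plek) and 0 with a gained one. Plek encodes pleckstrin, a major platelet protein, and its region scored 9.83 and 2.53 before estradiol, 11.7 and 8.48 after 2 h, 6.13 and 7.17 after 6 h and 5.99 in 12 h replicate 2. The promoter of Gp5, a subunit of the platelet receptor for von Willebrand factor, scored 7.22 and 4.89 at 2 h, 2.74 in 0 h replicate 1 and 2.21 in 12 h replicate 1. The region counted for Itga2b lies in an intron of Gpatch8, and that for Gp1ba is a promoter of Camta2, so 2 of these 4 genes are counted for regions inside other genes.

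Erythropoietin and cytokine signalling had 4 of 16 genes with a lost region (Stat5a, Stat5b, Gab1 and Grb2) and 2 with a gained one (Pim1 and Bcl2l1). Bcl2l1, which encodes the survival protein Bcl-xL, had 2 gained regions in its intron, printed above. The nearer of them scored 8.26 and 5.77 after 24 h, 5.64 and 5.93 after 12 h, 9.60 and 9.23 after 6 h and 4.27 below the cut in 2 h replicate 1, and it was absent from both 0 h lists. The farther scored 6.23 and 6.38 at 24 h, 4.61 and 4.998 at 12 h, 3.43 below the cut in 2 h replicate 2 and 5.21 in 0 h replicate 2. The region 43.3 kb upstream of Pim1, a kinase gene induced by STAT5, scored 6.07 and 10.98 after 24 h, 3.87 and 8.21 after 12 h, 5.55 and 12.3 after 6 h and 1.93 in 2 h replicate 1. Stat5a and Stat5b share a single lost region in an intron of Stat5a, with 8.90 and 8.10 at 0 h, 8.15 and 7.34 at 2 h, 4.93 in 6 h replicate 2 and 2.72 and 6.32 at 12 h. The Grb2 region is at its promoter and had a peak in the full lists of both libraries of 2 h, 6 h and 12 h, that of 6 h replicate 1 (3.24) being below the cut. In the cell cycle exit list only Btg2, an inhibitor of proliferation, had a gained region, and in the autophagy and maturation list only Tmcc2, and neither list had a lost one.

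The study captured the contacts of promoters of genes that GATA1 activates or represses, and its choice of genes came from expression in this system, so their direction is not independent evidence. Of 21 genes on the activated list, 3 had a gained region (Bach1, Btg2 and Spns2) and 2 a lost one (Cldn13 and Hbb-bs). The Spns2 region, in an intron of this sphingosine phosphate transporter gene, scored 5.47 and 3.69 after 24 h, 4.29 and 3.10 after 12 h, 4.74 and 5.24 after 6 h, and was not listed at 0 h or 2 h. Of 19 genes on the repressed list, 6 had a lost region (Cpa3, Fgf3, Gata2, Gpr65, Il1rl1 and Tmem44) and 2 a gained one (Kit and Sept9). Bach1, Btg2, Hbb-bs, Cpa3, Gata2, Gpr65, Il1rl1 and Kit were also counted in lists above, so those counts are not separate from these. The Fgf3 region, 49.2 kb upstream with 3 GATA matches, scored 8.43 and 4.67 at 0 h, 5.96 and 9.88 at 2 h and 4.90 in 6 h replicate 2. Among the 12 markers of other cell types, the neutrophil gene Elane had a gained region 6.74 kb past its start, with scores of 4.95 and 4.20 at 24 h and 4.79 below the cut in 2 h replicate 1.

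**Figure D5:**
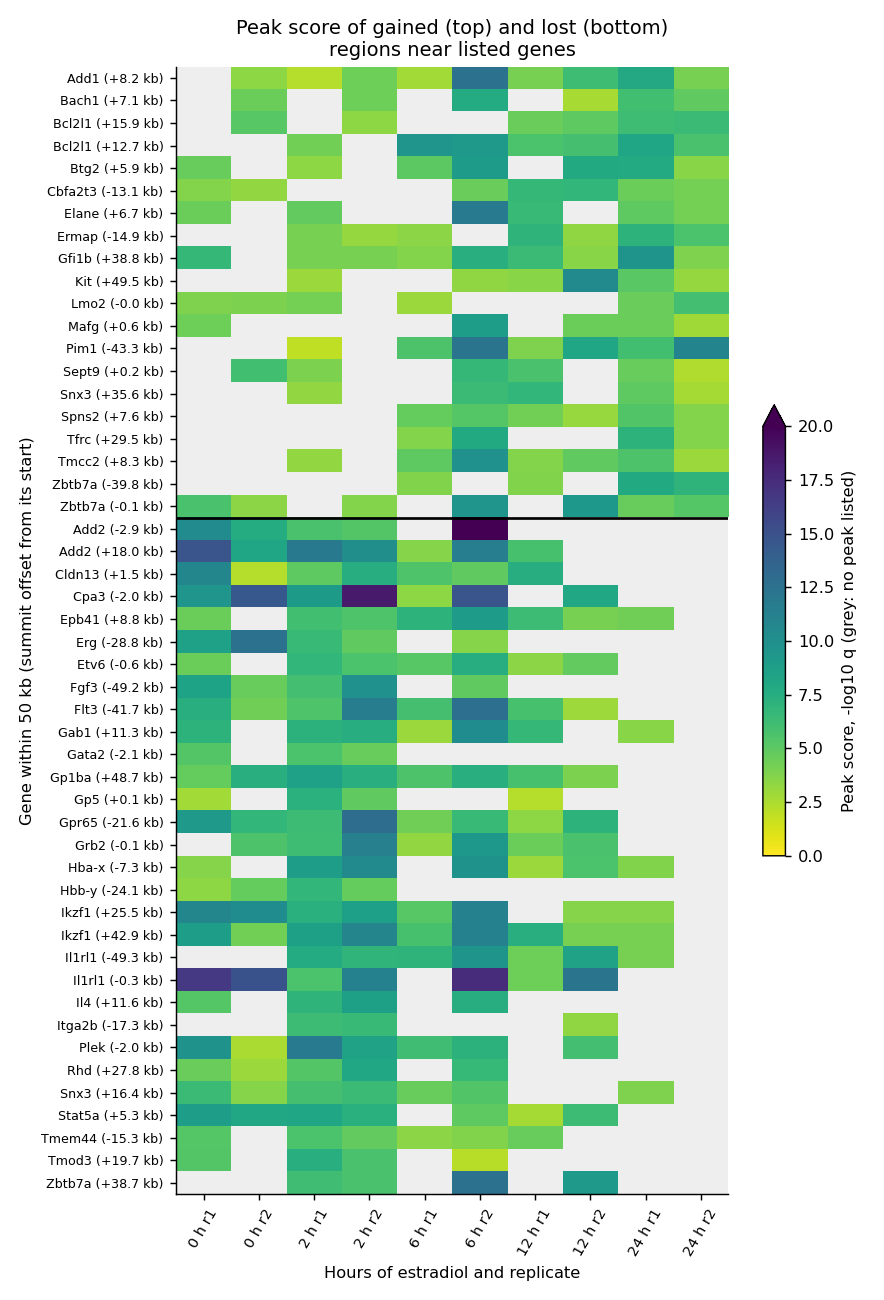
Peak score (colour, −log10 q, grey where no peak is listed) of the 20 gained (upper block) and 30 lost regions (lower block) near listed genes, a row per region named by its nearest listed gene, a column per library. Scores are from the full lists, so peaks below the cut are coloured too, and the grey 24 h replicate 2 column of the lower block follows from the rule. Lost regions near Cpa3 and Il1rl1 have scores up to 18.6 and 17.5 before 24 h.

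By nearest gene within 100 kb, the gained regions fell to 431 genes and the lost regions to 504, 32 of them shared. No gene had more than 2 of either kind. Distances between members were not measured, so clustering across neighbouring genes was not tested. There were 18 genes with 2 gained regions, of which Arhgap23, Atxn7l1, Bcl2l1, Ccdc88c and Disp1 come first in the alphabet, and 21 with 2 lost regions, of which Actr3, Add2, Ankrd11, Asah2 and Ccng2 come first. Ikzf1, Ikzf2 and Il1rl1 were also among the genes with 2 lost regions. More than 100 kb from any start lay 9 gained and 64 lost regions.

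Whether regions open throughout changed in strength was asked of the 6233 regions with a peak in all 10 full lists. With limma on quantile-normalised log2 scores and Benjamini-Hochberg adjustment, 0 regions were higher (0%) and 0 lower (0%) at 24 h than at 2 h, and at an unadjusted p under 0.05 limma gave 95 higher and 117 lower. The median standard error of a difference was 0.447 on the log2 scale. The median difference was −0.03 over the 1216 regions outside promoters. The regions with the smallest p-values (adjusted p = 0.999 for each, limma) were nearest to Pld6, Arhgap23, Lsm3, H2-D1 and Dlgap5 among those higher at 24 h and to Nova1, Ikzf2, Ahi1, Gusb and Col28a1 among those lower. The higher ones were promoters except that of Pld6, and the lower ones were all distal. The region near Nova1 scored 8.44 and 12.8 at 2 h and 2.44 and 2.68 at 24 h, a log2 difference of −1.82 ± 0.40 (SE). That near Ikzf2, the gene of a lymphoid relative of Ikaros, scored 10.1 and 13.9 at 2 h and 3.596 and 2.79 at 24 h, a log2 difference of −1.69 ± 0.39 (SE). The region near Ahi1 scored 19.997 and 33.1 at 2 h and 4.53 and 9.78 at 24 h. Scores of the 2 compared times did not overlap in any region named here, whether higher or lower. Near Pld6, for instance, the 2 h scores were 2.24 and 4.53, the 24 h scores 7.76 and 8.63. Such separation follows from choosing the smallest p-values and is not evidence of a change. None of these regions passed the adjusted threshold.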

How the data were processed

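ATAC-seq was performed by the study on G1E-ER4 cells at 5 times. Reads were aligned to mm10, and peaks were called per library with MACS2 without its shifting model. The study's methods name Bowtie2, whereas the submitters' processing notes name Bowtie 1.0.0. Picard appears in those notes, and a Tn5 shift or blacklist filter is not given in the sources used here. Each of the 10 deposited files is the authors' list of summits, with −log10 of the q-value as score. Lists hold no reads, so the precision of each library is unknown.

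Peaks on chromosomes 1 to 19 and X were used, and 4 or 5 mitochondrial and 1 to 4 Y peaks per list were left out. Regions were merged from windows of 501 bp in lists cut to 10697 peaks, and a library listed a region where a window overlapped it. Motifs were read in 200 bp at the summit of best rank, and genes were taken from GENCODE vM21. Shares over libraries were compared by exact permutation tests, and scores by limma 3.58.1 (R 4.3.3) on all 10 libraries in 5 groups, with the fit tested on simulated data. Python 3.11.15 was used.

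Named were the 6 gained and 6 lost regions whose worse rank was best, among those with no overlapping peak in the full lists of the other time point and not on chromosome 18, the 5 genes with the most regions in each direction (ties in alphabetical order), listed genes within 50 kb of a member, and the 5 shared regions with the smallest p in each direction. Ikzf1, Ikzf2 and Il1rl1 were also named for their 2 lost regions after their values were seen. Members, gene lists and tests were chosen with earlier results of these data known. Alternatives were other list sizes, windows, distances and fits, and leaving out each library. Some listed genes are not reported here and were left out of the counts over lists.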

Additional observations from a re-analysis of the deposited data

How the results depend on the processing

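Alternatives were run for the counts of members, their GATA and promoter shares, their relation to hours, the nearby genes, the GATA share per library and the scores of shared regions. The GATA share per library was also lower at 24 h with full lists (difference −5.43 points). Gained and lost regions numbered 280 and 1167 with full lists and 226 and 260 with the 5000 best peaks. Requiring no peak in the other full lists, an alternative chosen after seeing the data, gave 134 gained and 394 lost regions, and requiring none within 1 kb, also chosen then, 113 and 367. The list of 24 h replicate 2 held no peak below the cut that could remove a lost region. Leaving out each library relaxes the rule, and raised the counts for all 4 libraries, to 951 to 2113 gained and 1116 to 1944 lost regions. The GATA share of gained regions was 31.1% with full lists, 15.0% with 5000 peaks, 31.3% and 31.9% under the stricter rules and 20.3% to 25.0% without a library. That of lost regions was 46.9% with 5000 peaks, 65.0% and 66.8% under the stricter rules and 39.7% to 51.5% without a library, above the gained share under each. The promoter share of gained regions was 25.7%, 71.2%, 23.9% and 15.9% under these settings in order, 44.6% with 100 bp windows and 29.0% to 57.6% without a library. That of lost regions was 16.7%, 45.0%, 15.5% and 13.4%, then 26.6% with 100 bp windows and 19.2% to 46.6% without a library, and it was above the gained share (29.0%) without 24 h replicate 2. Spearman's rho with hours was 0.359 to 0.788 (gained) and −0.837 to −0.359 (lost) without a library, the weakest being without 24 h replicate 2, with full lists 0.717 and −0.478 (exact permutation p = 0.178 and 0.4), and with 5000 peaks 0.728 and −0.956 (exact permutation p = 0.133 and 0.0222). Genes near gained and lost regions numbered 1834 and 1893 at 100 kb and 691 and 2010 with full lists.

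No fit of the shared regions made a call, so this says nothing about stability. With the replicate block limma gave 0 higher and 0 lower regions (185 and 201 at an unadjusted p under 0.05), with the 4 libraries alone 0 and 0 of 7589 (121 and 130), and without a library 0 and 0 (71 to 149 and 74 to 200). The sources used here do not say whether a replicate number marks a shared experiment. The deviations of same-numbered 2 h and 24 h libraries from their group means had a correlation of 0.276 over 6233 regions. With 2 libraries per group both replicate numbers give the same value by construction. This single value cannot settle whether replicate numbers mark a shared experiment. For the presence calls no paired analysis was possible because pairing leaves the sets as they are.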
